A study of Mus musculus with 10 samples.

Results

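The 8 genes that carry out or directly control the breakdown of stored fat were followed, namely the lipase genes Pnpla2, Lipe, Mgll, Pnpla3 and Ces1d, the lipase co-activator gene Abhd5, the lipase inhibitor gene G0s2 and the glycerol channel gene Aqp7. They were chosen by name, and each matched 1 row of the 26040 gene rows by its GENCODE mouse M21 symbol. All 8 had enough counts to be tested, as did 16446 genes in all. The data were raw RNA sequencing counts from epididymal white adipose tissue, the visceral fat pad beside the epididymis of male mice. The knockout mice were C57BL/6 mice with an adipocyte-specific knockout of Sucnr1 (n = 5), the gene of the succinate receptor, and the controls were C57BL/6 mice with floxed Sucnr1 alleles (n = 5). The labels do not name the Cre driver, nor the age, diet or feeding state of the mice. Libraries are called by their group and by the numbers 2 to 6 of their titles. The comparison asks whether loss of the receptor from fat cells comes with other levels of the lipolysis genes.

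Triglyceride stored in the lipid droplet of an adipocyte is taken apart stepwise. Adipose triglyceride lipase (ATGL, encoded by Pnpla2) starts the process, hormone-sensitive lipase (encoded by Lipe) cleaves the diglyceride, and monoglyceride lipase (encoded by Mgll) releases the last fatty acid and glycerol. The protein CGI-58 (encoded by Abhd5) activates ATGL, and the G0S2 protein inhibits it. Between meals, catecholamines raise cyclic AMP, protein kinase A phosphorylates hormone-sensitive lipase and perilipin 1, and CGI-58 is set free to reach ATGL. Receptors coupled to inhibitory G proteins, among which the succinate receptor is counted in fat, restrain the pathway. Much of this control works on proteins and not on transcript levels.

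In mm10, whose coordinates come from GENCODE M21, Pnpla2 (ENSMUSG00000025509) spans 141455198 to 141460743 on chromosome 7 (plus strand). Lipe (ENSMUSG00000003123) lies on the minus strand of the same chromosome from 25379527 to 25398710. Mgll (ENSMUSG00000033174) spans 88724412 to 88828360 on the plus strand of chromosome 6, and Abhd5 (ENSMUSG00000032540) spans 122351608 to 122381524 on the plus strand of chromosome 9. G0s2 (ENSMUSG00000009633) is a short gene on the minus strand of chromosome 1 from 193272161 to 193273217. Pnpla3 (ENSMUSG00000041653) lies on chromosome 15 from 84167837 to 84187236 (plus strand) and Ces1d (ENSMUSG00000056973) on chromosome 8 from 93166068 to 93197838 (minus strand). Aqp7 (ENSMUSG00000028427) lies on the minus strand of chromosome 4 from 41033074 to 41048139.

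The clock genes Arntl and Tef differed between the groups of these libraries, with log2 fold changes of -1.47 and 0.74 (edgeR, p adjusted over all genes by the Benjamini-Hochberg method, 0.0202 for each), so the promoters of the lipolysis genes were read for the E-box CACGTG, which the CLOCK and BMAL1 proteins bind. RefSeq (GRCm38.p6) gave 10 start sites for 7 of the genes and none for Ces1d. Within the 250 bases before a start site, 2 of the 10 windows held the letters CACGTG, for Mgll and for Lipe. Of 32851 such windows of all genes, 6.02% held them. The stretches of 30 bases around both matches are shown 5′ to 3′ on the gene's strand, with the E-box in capitals. The Mgll stretch lies at chr6:88724356-88724385 with 38 bases between its E-box and the start site, and the Lipe stretch lies at chr7:25396125-25396154, with 149 bases between its E-box and a start site, inside an exon of the longer transcript Lipe-201.
Mgll: gggggccgggcaCACGTGgggccccggcgc
Lipe: aacagggacgacCACGTGagggggcggagg
The letters TTATGNAA, a motif of TEF and related factors, were in none of the 10 windows on either strand, and 3.07% of all windows hold them. A match or its absence is a description of these letters in this window.

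Total counts per library lay between 24182798 and 30603326. Sucnr1 stood at 2.05 to 4.67 CPM (counts scaled to one common library size) in knockout libraries and 38.0 to 75.9 CPM in controls. Adipoq, which encodes adiponectin and marks adipocytes, stood at 2251 to 3003 CPM in knockout libraries and at 1516 to 3444 CPM in controls. Markers of other tissues were high in several libraries. Crisp1 of the epididymis reached 3574 CPM in knockout library 3 and 8572 CPM in control library 6, Akr1b7 of the vas deferens reached 5106 CPM in control library 3, and Alb of liver reached 4310 CPM in knockout library 6. An adipocyte score, the mean log2 CPM of 20 adipocyte genes that include none of the 8, was 10.17 ± 0.22 in knockout libraries and 9.81 ± 0.44 in controls (SD, n = 5 each; exact two-sided permutation p = 0.167). The lowest scores, 9.48 and 9.21, were those of control libraries 3 and 6. All 20 score genes had higher fitted values in knockouts, and none was called by edgeR. All 12 endothelial genes and all 11 genes of smooth muscle and vas deferens had lower fitted values, as had 13 of 15 macrophage genes, and all 16 liver genes had higher ones, with none called by edgeR. The summed level of the liver genes was 5496 to 15908 CPM in knockout libraries and 3068 to 8001 CPM in controls. Outside knockout library 6 that sum was mostly Cyp2e1 and Trf, which were high in every library, at 1562 to 3644 and 3003 to 4498 CPM in knockout libraries and 870 to 3058 and 1978 to 4726 CPM in controls, while Alb was at most 83.1 CPM outside knockout library 6. The summed level of smooth muscle and vas deferens genes was 482 to 900 CPM in knockout libraries and 681 to 9251 CPM in controls. The summed endothelial level was 738 to 1021 CPM in knockout libraries and 823 to 1467 CPM in controls, and the macrophage sum was 1022 to 1483 CPM in knockout libraries and 1035 to 1888 CPM in controls. The part of these other tissues and cells in the results below was not tested, other than by the adipocyte score and by leaving libraries out. In whole tissue, fewer adipocytes and less RNA per adipocyte cannot be told apart.

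None of the 8 lipolysis genes passed an adjusted p of 0.05 over all genes (edgeR, n = 5 per group). Among all genes tested, 10 of 16446 genes did, which is 0.0608%. DESeq2 and limma-voom also called 0 of the 8, against 1.41% and 0.0547% of all genes. At an unadjusted p under 0.05 there was 1 of the 8, Abhd5, where 10.1% of all genes were (5.36% with the higher level in knockouts). Of the 8 fitted differences, 6 were above 0 and 2 below, where 44.8% of all genes tested were above 0. The median log2 fold change of the 8 was 0.24, against -0.03 over all genes tested, and with the adipocyte score as a covariate it was -0.05, against 0.01. The exact two-sided permutation test of log2 CPM, not adjusted, gave p = 0.0238 for Abhd5, 0.0476 for Pnpla2, 0.103 for Lipe, 0.302 for Pnpla3, 0.5 for Ces1d, 0.54 for Aqp7, 0.579 for G0s2 and 0.984 for Mgll (n = 5 per group). In no case were the groups free of overlap, while 1.91% of all genes separated them.

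Pnpla2, the gene of the lipase that starts the process, stood at 1613, 1349, 1359, 1286 and 1564 CPM in knockout libraries 2 to 6, against 1074, 841, 1562, 1164 and 663 CPM in control libraries 2 to 6. The knockout values lay close together, and only control library 4 lay within their range. The mean was 1434 ± 145 CPM in knockouts and 1061 ± 342 CPM in controls (SD, n = 5 each), and the log2 fold change was 0.43 (SE 0.21, edgeR adjusted p = 0.508). Without control libraries 3 and 6, the libraries with the lowest adipocyte scores, the log2 fold change was 0.17, and with the score as a covariate it was 0.18. Over all omissions of 1 library it lay between 0.30 and 0.62. Leaving out only controls with low scores by itself lowers the difference of a gene that follows the score. For such genes, here and below, that fit is no independent check. All 20 score genes had higher fitted values in knockouts. The covariate can therefore also take up a difference between the groups that adipocyte genes share. Here and below, values with the covariate are not a correction for tissue composition alone.

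Lipe, the gene of hormone-sensitive lipase, stood at 1499, 1167, 1703, 1558 and 1535 CPM in knockout libraries 2 to 6, against 1356, 897, 1437, 1349.7 and 730 CPM in control libraries 2 to 6. Control libraries 3 and 6 were again the lowest, and knockout library 3 lay below 3 controls. The means were 1492 ± 198 CPM in knockouts and 1154 ± 318 CPM in controls (SD, n = 5 each), with a log2 fold change of 0.37 (SE 0.20, edgeR adjusted p = 0.547). Without control libraries 3 and 6 the log2 fold change was 0.11, and with the adipocyte score as a covariate it was 0.07. The exons of Lipe overlap those of the antisense gene 4732471J01Rik by 918 bases, and the strand setting of the counting is not given in the sources used here. That antisense gene averaged 15.3 CPM in knockouts and 14.4 CPM in controls, far below Lipe.

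Mgll, the gene of the lipase that completes the process, stood at 1052, 720, 1368, 974 and 988 CPM in knockout libraries 2 to 6, against 1369, 917, 941, 1164 and 717 CPM in control libraries 2 to 6. Its means of 1020 ± 232 CPM in knockouts and 1022 ± 250 CPM in controls (SD, n = 5 each) nearly coincided, and the log2 fold change was -0.00195 (SE 0.21, edgeR adjusted p = 0.997). Its sign turned with the scaling and with single libraries. Adjusted for the adipocyte score as a covariate, the log2 fold change was -0.29 (SE 0.16, edgeR adjusted p = 0.539).

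**Figure D1:**
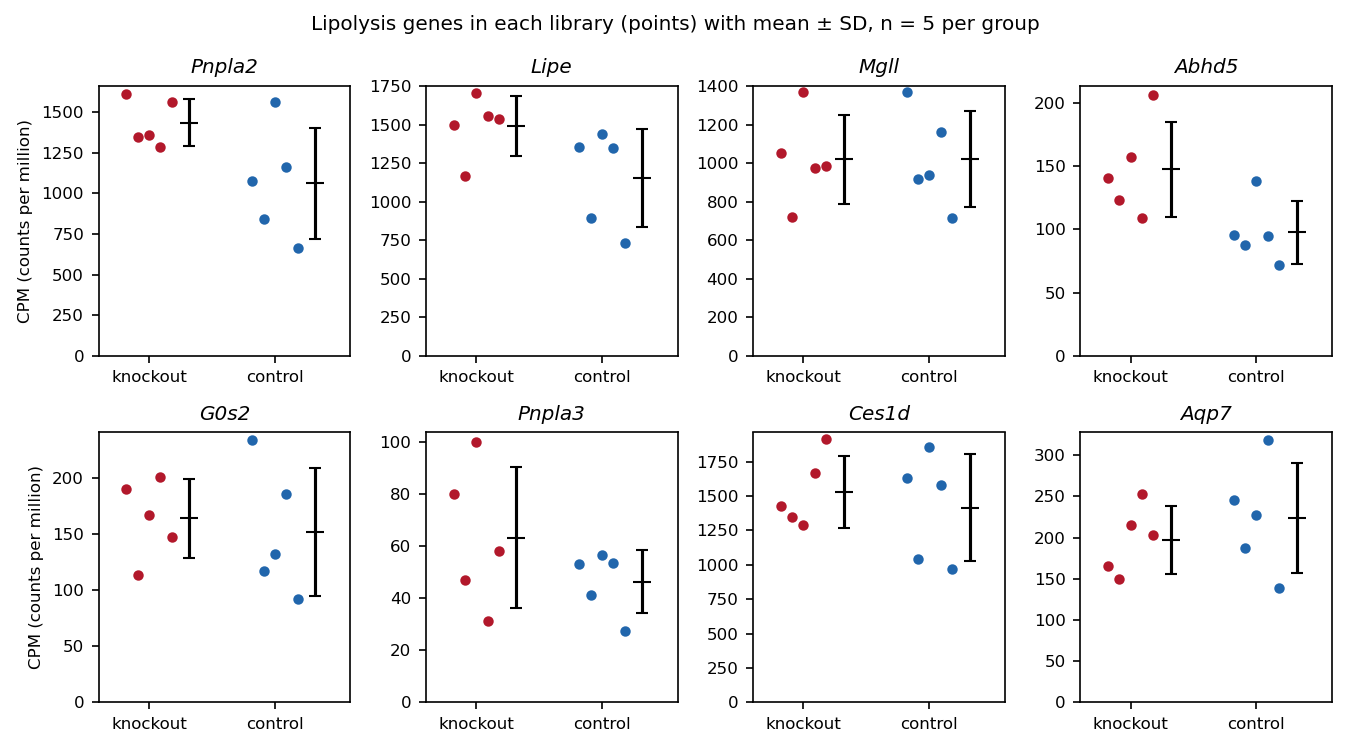
CPM of each of the 8 genes in the 5 knockout and 5 control libraries (points), with the mean and SD beside them. All 8 genes overlap between the groups; Pnpla2 lies between 1286 and 1613 CPM in knockouts and between 663 and 1562 CPM in controls.

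Among the regulators of ATGL, Abhd5 had the smallest unadjusted p of the 8 genes. It stood at 140, 123, 157, 109 and 206 CPM in knockout libraries 2 to 6, against 95.5, 87.7, 138, 94.8 and 71.5 CPM in control libraries 2 to 6. Every knockout library exceeded all controls but library 4, which lay above knockout libraries 3 and 5. The mean was 147 ± 38 CPM in knockouts and 97.5 ± 24.6 CPM in controls (SD, n = 5 each), a 1.51-fold difference with a log2 fold change of 0.59 (SE 0.21, edgeR unadjusted p = 0.016, adjusted p = 0.436). Knockout library 6, the highest for Abhd5, is the library with the high Alb level, and without it the log2 fold change was 0.44. Over all omissions of 1 library the log2 fold change lay between 0.44 and 0.75. Without control libraries 3 and 6 it was 0.42, and with the adipocyte score as a covariate 0.34 (SE 0.18, edgeR adjusted p = 0.508). Its exons overlap those of an antisense gene, A730085K08Rik, by 950 bases, and that gene was not analysed here.

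G0s2, the inhibitor, stood at 191, 113, 167, 201 and 148 CPM in knockout libraries 2 to 6, against 234, 117, 132, 186 and 92.0 CPM in control libraries 2 to 6. The control values spread more widely than the knockout values and enclosed them all. The log2 fold change was 0.11 (SE 0.25, edgeR adjusted p = 0.882). It was -0.17 without control libraries 3 and 6 and -0.20 with the adipocyte score as a covariate, neither past the threshold.

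Pnpla3, which encodes adiponutrin, a relative of ATGL, was the most variable of the 8 among knockouts. It stood at 80.0, 46.9, 100.2, 31.3 and 58.4 CPM in knockout libraries 2 to 6, against 53.3, 41.2, 56.8, 53.6 and 27.5 CPM in control libraries 2 to 6. Knockout library 5 lay below 4 of the controls, while knockout libraries 2, 4 and 6 lay above them all. The coefficient of variation was 42.9% in knockouts and 26.2% in controls, and the log2 fold change was 0.45 (SE 0.31, edgeR adjusted p = 0.631). It was 0.03 with the adipocyte score as a covariate (SE 0.26, edgeR adjusted p = 0.975) and 0.21 without control libraries 3 and 6. Without knockout library 4 it was 0.22, and without knockout library 5 it was 0.61 (edgeR adjusted p = 0.412). The exons of Pnpla3 overlap those of Gm49513 on the same strand by 105 bases, and Gm49513 was not analysed here.

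Ces1d encodes a carboxylesterase that hydrolyses triglyceride in adipocytes and in liver. It stood at 1429, 1349, 1287, 1664 and 1914 CPM in knockout libraries 2 to 6, against 1630, 1045, 1856, 1576 and 970 CPM in control libraries 2 to 6. The log2 fold change was 0.11 (SE 0.20, edgeR adjusted p = 0.849). Knockout library 6 was the highest of the 10, and Ces1c, a related gene of liver, was at 137 CPM there and at most 2.15 CPM in the other libraries. Without that library the log2 fold change of Ces1d was 0.02. Of the 50-base stretches of Ces1d transcripts, 1.08% also occur in Ces1b, Ces1f or Ces1g, relatives whose reads could be shared. The share found in transcripts of other genes was larger for Pnpla3, 5.14%, and for Aqp7, 2.93%.

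Aqp7, the gene of the channel through which glycerol leaves the adipocyte, was the other gene with a lower mean in knockouts. It stood at 165, 149, 215, 252.4 and 203 CPM in knockout libraries 2 to 6, against 246, 187, 227, 319 and 139 CPM in control libraries 2 to 6. The knockout range lay wholly within that of the controls. The means were 197 ± 41 CPM in knockouts and 224 ± 67 CPM in controls (SD, n = 5 each), with a log2 fold change of -0.18 (SE 0.22, edgeR adjusted p = 0.768). Adjusted for the adipocyte score as a covariate, the log2 fold change was -0.45 ± 0.17 (SE), which had an unadjusted p of 0.027 and did not pass over all genes (edgeR adjusted p = 0.452). Without control libraries 3 and 6 it was -0.43 (edgeR adjusted p = 0.506).

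**Figure D2:**
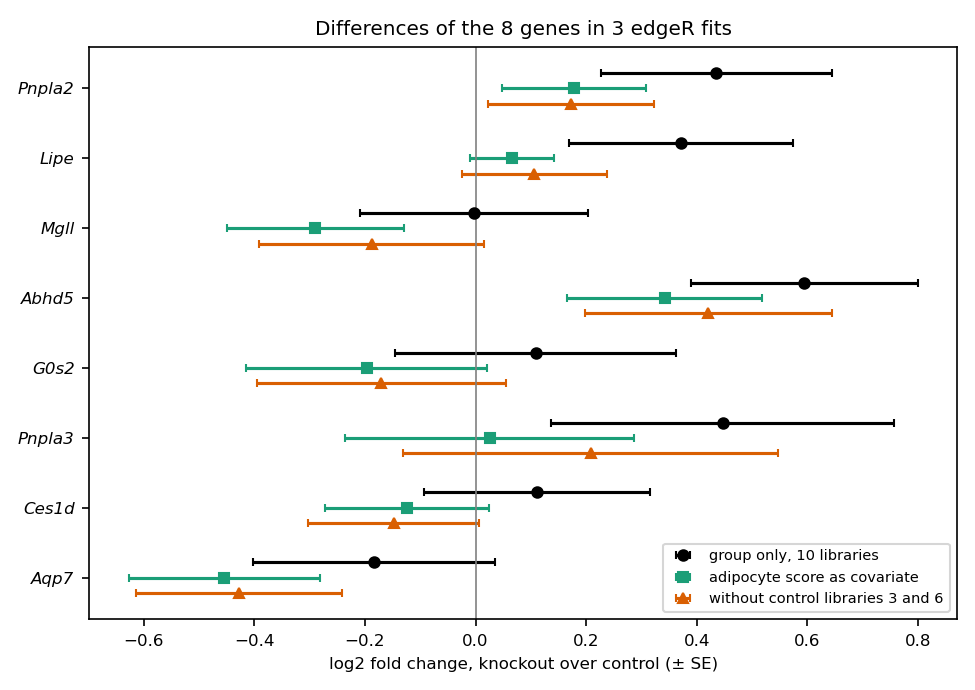
Log2 fold change of knockout over control with its standard error for each of the 8 genes, in the edgeR fit of all 10 libraries, in that with the adipocyte score as a covariate, and in that leaving out control libraries 3 and 6. The values of Pnpla2 and Lipe are 0.43 and 0.37 without the covariate and 0.18 and 0.07 with it, and that of Aqp7 is -0.18 without it and -0.45 with it. None passed an adjusted p of 0.05 in any of the 3 fits. The covariate can also take up a difference between the groups that adipocyte genes share.

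Levels of different genes were compared per kilobase of exon. Ces1d was the most abundant, at 645 ± 109 CPM per kilobase in knockouts and 598 ± 164 in controls (SD, n = 5 each, as for the levels that follow). Pnpla2 followed with 475 ± 48 CPM per kilobase in knockouts and 351 ± 113 in controls. Lipe reached 254 ± 34 in knockouts and 196 ± 54 in controls, Mgll 201 ± 46 in knockouts and 201 ± 49 in controls, and G0s2 188 ± 40 in knockouts and 175 ± 66 in controls, all in CPM per kilobase. The lower levels were those of Aqp7, with 69.6 ± 14.5 CPM per kilobase in knockouts and 79.1 ± 23.7 in controls, and of Pnpla3, with 40.9 ± 17.6 in knockouts and 30.0 ± 7.9 in controls. Abhd5, the co-activator, had the lowest, 24.7 ± 6.3 CPM per kilobase in knockouts and 16.4 ± 4.1 in controls. Within libraries, the order Ces1d above Pnpla2 above Lipe held in 10 of 10, as did G0s2 above Aqp7 above Pnpla3 above Abhd5. Lipe was above Mgll in 7 of 10 and Mgll above G0s2 in 8 of 10, and the ranges of each of these pairs of neighbours overlapped over the 10 libraries. The 3 libraries in which Mgll exceeded Lipe were all controls, while Lipe was above Mgll in 5 of 5 knockouts. This split restates the ratio of Mgll to Lipe given below, which did not pass after adjustment. It also depends on the exon lengths, 5077 bases for Mgll and 5886 for Lipe. In CPM without lengths, control library 6 had Mgll at 717 and Lipe at 730. The annotated exons of Pnpla3 sum to 1548 bases and those of Abhd5 to 5956 bases, which enters these values.

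Ratios of transcripts within a library need no scaling between libraries, and 5 were compared. The ratio of G0s2 to Abhd5, inhibitor against co-activator, was 8.08 ± 3.02 per length in knockouts and 10.9 ± 4.1 in controls (SD, n = 5 each; exact two-sided permutation p = 0.238, adjusted p = 0.397 over the 5 ratios). The ratio of G0s2 to Pnpla2, inhibitor against lipase, was 0.40 ± 0.10 in knockouts and 0.51 ± 0.17 in controls (exact permutation p = 0.222, adjusted p = 0.397), and that of Abhd5 to Pnpla2 was 0.052 ± 0.011 in knockouts and 0.048 ± 0.006 in controls (exact permutation p = 0.476, adjusted p = 0.548). Lipe to Pnpla2 was 0.54 ± 0.09 in knockouts and 0.57 ± 0.06 in controls (exact permutation p = 0.548, adjusted p = 0.548).

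The ratio of Mgll to Lipe, the last lipase against the one before it, had the smallest p of the 5. It was 0.81, 0.72, 0.93, 0.72 and 0.75 in knockout libraries 2 to 6, against 1.17, 1.19, 0.76, 1.00 and 1.14 in control libraries 2 to 6. Each knockout library lay below the control median, and control library 4 lay among the knockouts. The log2 difference was -0.41, a 0.75-fold ratio (exact two-sided permutation p = 0.0238, adjusted p = 0.119 over the 5 ratios, n = 5 per group). It therefore did not pass after adjustment. Without control libraries 3 and 6 the log2 difference was -0.30 (exact permutation p = 0.107, n = 5 and 3), where the libraries left out both had ratios above 1.

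**Figure D3:**
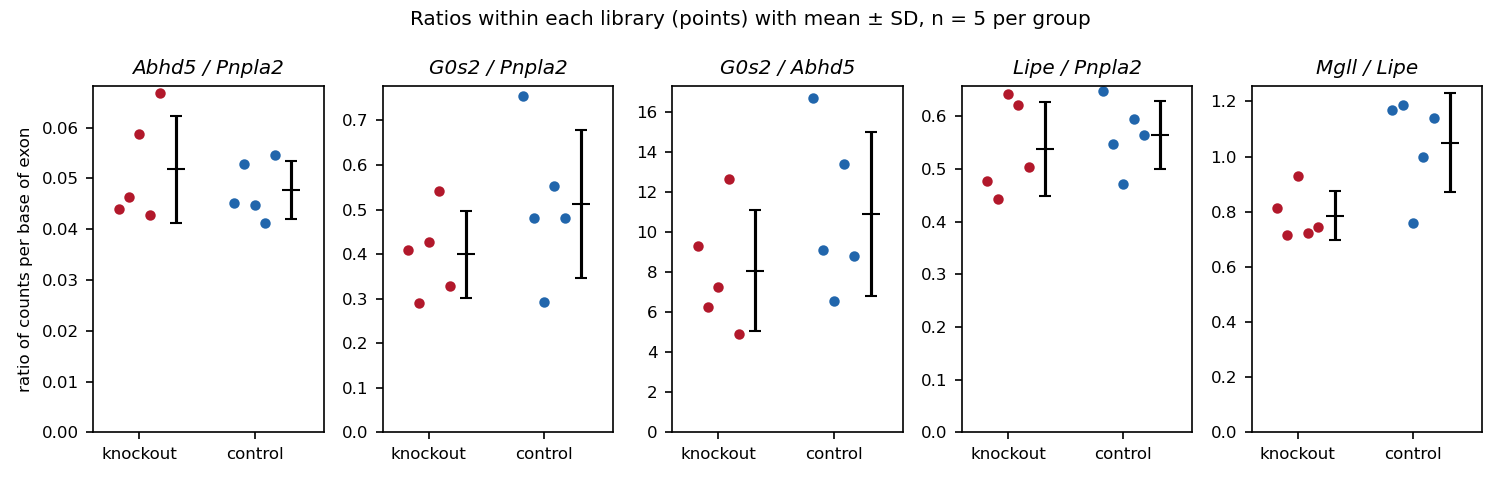
Ratio of counts per base of exon for 5 pairs of lipolysis genes in each of the 5 knockout and 5 control libraries (points), with the mean and SD beside them. Mgll to Lipe lies between 0.72 and 0.93 in knockouts and between 0.76 and 1.19 in controls, and every pair of genes overlaps between the groups.

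The 8 genes followed the adipocyte score to different degrees over the 10 libraries. Lipe followed it most closely (Pearson r = 0.99, permutation p = 4e-05, adjusted p = 0.00032 over the 8 genes; Spearman rho = 0.85, adjusted p = 0.00733), and r was 0.91 without control libraries 3 and 6, the libraries farthest from the median score. Pnpla2 had r = 0.90 (permutation adjusted p = 0.0078) and rho = 0.83 (adjusted p = 0.00996), but r was 0.43 without those libraries, so its relation rests in large part on them. Abhd5 had r = 0.79 (permutation adjusted p = 0.0133) and rho = 0.88 (adjusted p = 0.0064), with r = 0.59 without them, and Pnpla3 had r = 0.77 (adjusted p = 0.016) and rho = 0.92 (adjusted p = 0.00392), with r = 0.67. For Mgll r was 0.68 (permutation adjusted p = 0.0365) and rho 0.62 (adjusted p = 0.0968). Ces1d had r = 0.78 (permutation adjusted p = 0.016) and rho = 0.50 (adjusted p = 0.193), and G0s2 had r = 0.70 (permutation adjusted p = 0.0271) and rho = 0.42 (adjusted p = 0.265). Without control libraries 3 and 6, r was 0.57 for Mgll, 0.10 for Ces1d and 0.21 for G0s2, so those of Ces1d and G0s2 rest on those libraries. Aqp7 had r = 0.54 (permutation adjusted p = 0.112) and rho = 0.33 (adjusted p = 0.35), with r = 0.17 without control libraries 3 and 6. When the mean of each group was first removed, r over the 10 libraries was 0.77 for Aqp7. By that measure the 8 genes lay closer together, from 0.71 for Abhd5 to 0.98 for Lipe, and it was not tested.

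**Figure D4:**
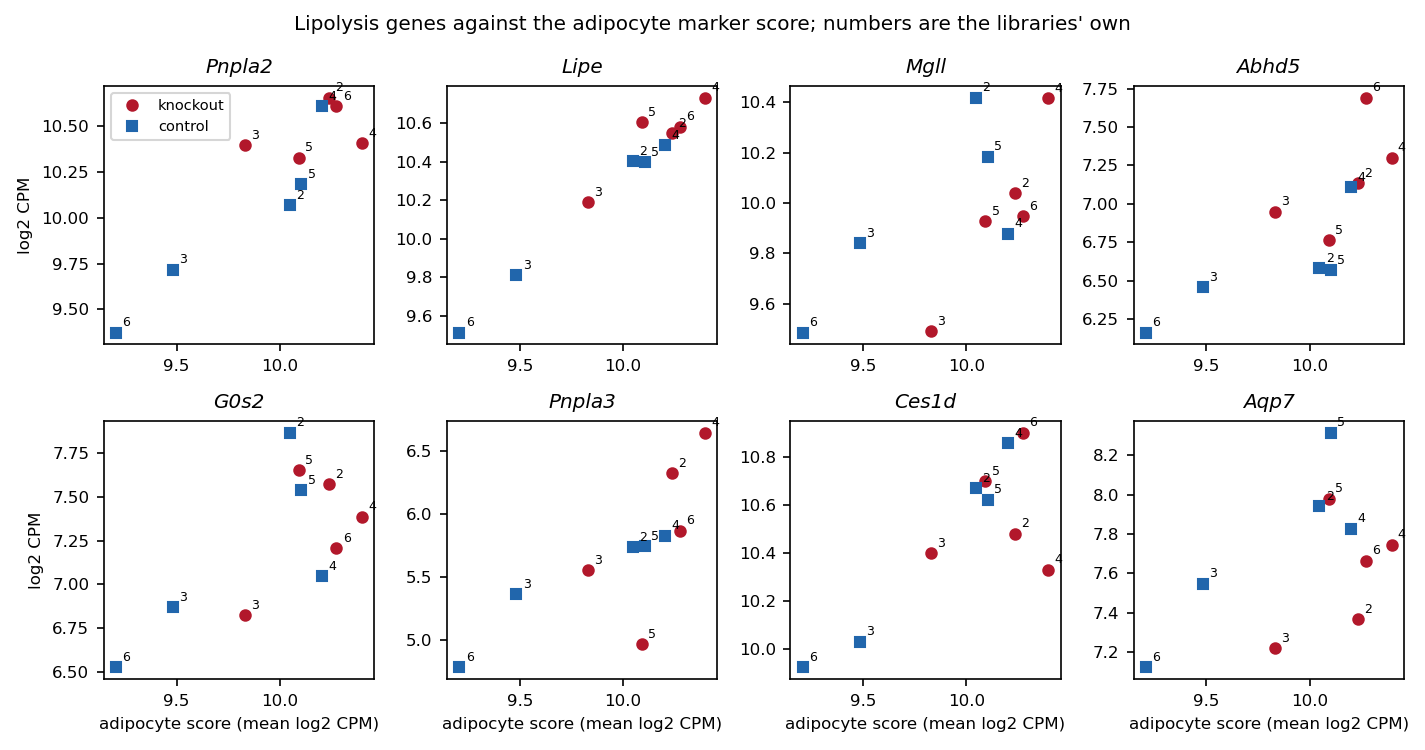
Log2 CPM of each of the 8 genes against the adipocyte score, the mean log2 CPM of 20 adipocyte genes, in 5 knockout and 5 control libraries marked with their numbers. Control libraries 3 and 6 have the lowest scores, 9.48 and 9.21, and Lipe lies nearest to a straight line (Pearson r = 0.99).

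The other genes of the pathway were taken from lists by role, and higher or lower refers to the sign of the fitted log2 fold change of knockout over control. The lists were chosen with earlier results of these data known. Their counts beside the shares of all genes are therefore a description and not a test. Of 11 tested droplet proteins, 6 were higher and 5 lower, where 44.8% of all genes were higher. Their median log2 fold change was 0.05, and none passed over all genes by edgeR, DESeq2 or limma-voom. For this list and those below, these tools called 0.0608%, 1.41% and 0.0547% of all genes. An unadjusted p under 0.05 was found for 1 of the 11, where 10.1% of all genes had one. The smallest p belonged to Bscl2, which encodes seipin, a protein of droplet formation, with 185 ± 50 CPM in knockouts and 124 ± 25 CPM in controls (log2 fold change 0.58, edgeR adjusted p = 0.436; 0.37 with the adipocyte score). Plin1, whose perilipin 1 protein holds CGI-58 at the droplet, is also a gene of the adipocyte score and had a fitted log2 fold change of 0.46 (edgeR adjusted p = 0.506; 0.12 with that score). Hilpda, another protein inhibitor of ATGL, stood at 5.43, 5.72, 6.01, 11.6 and 7.65 CPM in knockout libraries 2 to 6, against 16.1, 9.07, 10.7, 10.7 and 6.59 CPM in control libraries 2 to 6, and did not pass (log2 fold change -0.55, edgeR adjusted p = 0.52).

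Of 18 tested genes of the stimulating cyclic AMP pathway, 12 were higher and 6 lower, where 44.8% of all genes were higher. The median was 0.08, and none passed by edgeR, DESeq2 or limma-voom. None had an unadjusted p under 0.05, where 10.1% of all genes did. Among those with the smallest p were Prkar2b, a regulatory subunit of protein kinase A (log2 fold change 0.47, edgeR adjusted p = 0.538), and Prkaca, a catalytic subunit of the kinase (0.31, adjusted p = 0.595). With the adipocyte score as covariate these values were 0.07 and 0.05, and the median of the list was -0.04. The restraining signals had 13 higher and 8 lower of 21, with a median of 0.10, and 4 had an unadjusted p under 0.05, where 44.8% of all genes were higher and 10.1% had such a p. With the score as covariate the median was -0.04. Only Sucnr1, the targeted gene, was called by edgeR (log2 fold change -4.26, adjusted p = 0.000333).

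DESeq2, which called 1.41% of all genes, called 2 further genes of the restraining list, Adora1 and Pde4b. Adora1, an adenosine receptor that inhibits lipolysis, stood at 131, 98.4, 152, 87.7 and 123 CPM in knockout libraries 2 to 6, against 65.7, 91.4, 64.4, 71.2 and 58.1 CPM in control libraries 2 to 6. Only knockout library 5 and control library 3 crossed. Its log2 fold change was 0.75 (SE 0.17, edgeR adjusted p = 0.31; DESeq2 adjusted p = 0.00469). Pde4b, a phosphodiesterase that degrades cyclic AMP, had 15.6 ± 3.6 CPM in knockouts and 25.0 ± 4.8 CPM in controls (SD, n = 5 each; log2 fold change -0.67, edgeR adjusted p = 0.36; DESeq2 adjusted p = 0.0386).

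Of 18 tested genes for other neutral lipases and esterases, 10 were higher and 8 lower, where 44.8% of all genes were higher. The median was 0.10, and none passed by any of the 3 tools. An unadjusted p under 0.05 was found for 2, where 10.1% of all genes had one. The smallest p belonged to Aadac, an esterase abundant in liver, which stood at 28.7 CPM in knockout library 6 and at most 0.603 CPM in the others (edgeR adjusted p = 0.469). That library also had the high Alb level. Ddhd2 (log2 fold change 0.23, edgeR adjusted p = 0.49) and Nceh1 (-0.41, adjusted p = 0.494) followed.

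Of 18 tested genes that handle the released fatty acids and glycerol, 12 were higher and 6 lower, where 44.8% of all genes were higher. The median was 0.20, and with the adipocyte score as covariate it was 0.16. Fabp4 of this list is also a gene of that score. In the fit without the score, 5 of the 18 had an unadjusted p under 0.05, where 10.1% of all genes did. By edgeR or limma-voom none passed, and 2 passed by DESeq2, which called 1.41% of all genes. Gpd1, which supplies glycerol phosphate for re-esterification, stood at 625.05, 395, 754, 443 and 537 CPM in knockout libraries 2 to 6, against 348, 194, 334, 333 and 215 CPM in control libraries 2 to 6. These groups did not overlap, and the log2 fold change was 0.95 (SE 0.23, edgeR adjusted p = 0.341; DESeq2 adjusted p = 0.00735). Acsl1, which activates fatty acids to acyl-CoA, likewise did not overlap, with 3719 ± 794 CPM in knockouts and 2127 ± 528 CPM in controls (SD, n = 5 each; edgeR adjusted p = 0.36; DESeq2 adjusted p = 0.0147). Slc27a1, a fatty acid transport protein, had a fitted log2 fold change of 0.60 (edgeR adjusted p = 0.436). With the adipocyte score as covariate the log2 fold change was 0.61 for Gpd1, 0.53 for Acsl1 and 0.38 for Slc27a1, none past the threshold by edgeR.

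Among 14 regulators of transcription of lipase genes or fat metabolism, 12 were higher and 2 lower, where 44.8% of all genes were higher. The median was 0.24, and with the adipocyte score as covariate it was 0.16. Pparg and Cebpa of this list are also genes of that score. In the fit without the score, 6 of the 14 had an unadjusted p under 0.05, where 10.1% of all genes did. By edgeR or limma-voom none passed, and 4 passed by DESeq2, which called 1.41% of all genes. Mlxipl, the gene of ChREBP, a factor that responds to glucose, stood at 64.7, 58.5, 59.1, 57.6 and 67.3 CPM in knockout libraries 2 to 6, against 37.3, 43.1, 47.7, 48.9 and 33.7 CPM in control libraries 2 to 6. The groups did not overlap (log2 fold change 0.54, edgeR adjusted p = 0.251; DESeq2 adjusted p = 0.0013). Klf15, a factor induced by glucocorticoids and fasting, had 78.3 ± 18.9 CPM in knockouts and 42.2 ± 8.2 CPM in controls (SD, n = 5 each; edgeR adjusted p = 0.251; DESeq2 adjusted p = 0.0013). Ppara, a receptor for fatty acids, had a fitted log2 fold change of 0.88 (edgeR adjusted p = 0.36; DESeq2 adjusted p = 0.024). The last of the 4 was Sirt1, a deacetylase that acts on such factors, named after its values were seen, with 35.7 ± 1.9 CPM in knockouts and 31.3 ± 0.64 CPM in controls (SD, n = 5 each; edgeR adjusted p = 0.4; DESeq2 adjusted p = 0.0498).

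**Figure D5:**
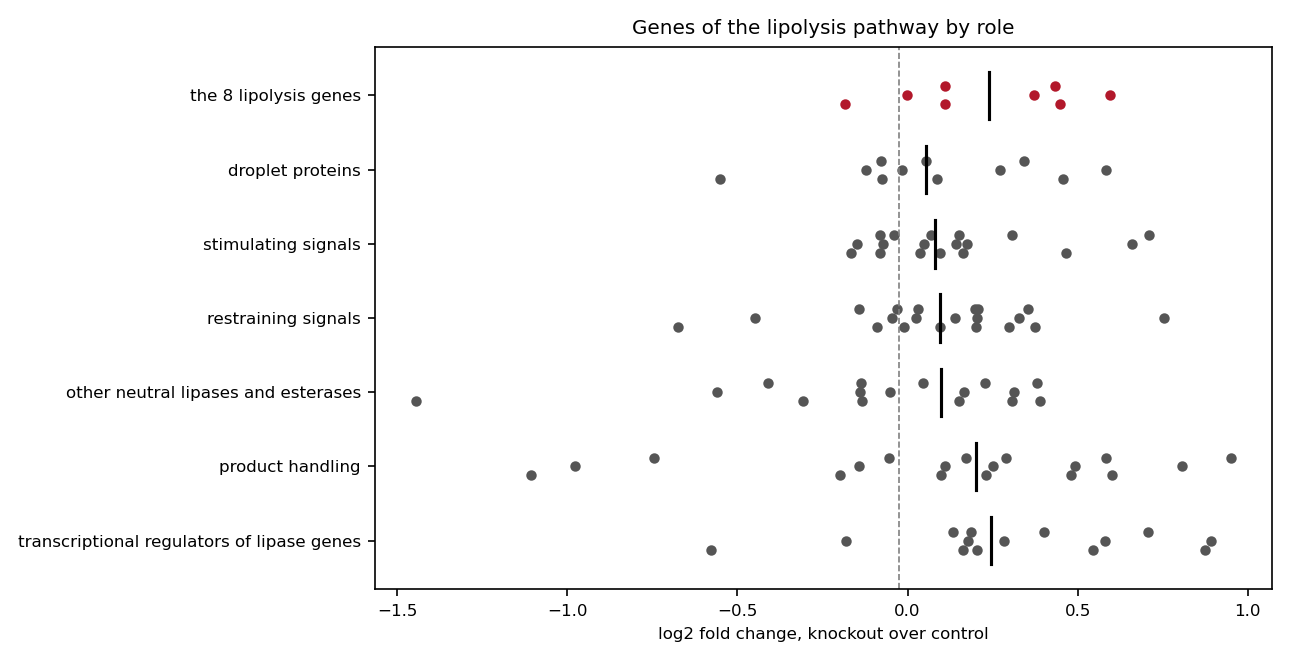
Log2 fold change of knockout over control for the 8 lipolysis genes (red) and the other tested genes of the pathway by role (grey); bars mark the median of each whole list and the dashed line the median of all genes tested, -0.03. Sucnr1, Aadac and Ces1c lie beyond the axis and are not drawn. The median of the 8 genes is 0.24, that of the lipase gene regulators also 0.24, and that of the droplet proteins 0.05.

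By likeness of log2 CPM over the 10 libraries, among 11950 genes compared, the gene most like Pnpla2 was Lgals12, which encodes a galectin of lipid droplets (Pearson r = 0.98), and the next were Ncoa1, a nuclear receptor co-activator, and Fam213a. Lipe was most like Sntb1 (r = 0.99), followed by Bckdhb and Elmod3, and Mgll was most like Tenm4, Ap1s1 and Cdsn (r = 0.98 for each). Ces1d was most like Apoe (r = 0.98), followed by Rrp15 and Map1lc3b, and Aqp7 was most like Cd59a (r = 0.99), followed by Sptan1 and Sptbn1. For Abhd5 they were Ifi205, Pld1 and Orc3 (r from 0.97 to 0.98), for Pnpla3 Hacd2, Csl and 5730455P16Rik (r = 0.96 for each), and for G0s2 4933433G19Rik, Slc7a10 and Aoc2 (r = 0.92 for each). No member of the 8 was among the 3 genes most like another. These genes were picked as the highest of 11950 over only 10 libraries, so high r are found by selection, and none was tested.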

How the data were processed

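Epididymal white adipose tissue of 5 knockout and 5 control mice was sequenced as total RNA (TruSeq Stranded Total RNA kit, 300 ng RNA per library, per the labels' protocols). Reads were aligned with STAR 2.5.2 to mm10, per the submitters' processing notes. The deposited values are whole-number counts per gene, and their unequal totals show no scaling by the authors. How reads were counted (program, annotation, strand) is not given in the sources used here. Gene IDs were named from GENCODE M21, which matched 25995 of 26040 rows. Groups and replicate numbers came from the labels, which do not tell whether mice shared a litter or cage, so p-values measure only the spread between these samples.

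Genes passing filterByExpr (minimum count 10) were scaled by TMM and tested with the edgeR 4.0.16 quasi-likelihood test (robust, group as the only term, R 4.3.3), with Benjamini-Hochberg adjustment over 16446 genes at 0.05. CPM values use the same scaling. DESeq2 1.42.0, limma-voom (limma 3.58.1), other scalings and filters, a replicate block, the adipocyte score as a covariate and omitted libraries were alternatives. Counts were simulated on 16225 genes of this comparison, with 50 genes changed at each fold. In them edgeR recovered 12% of genes changed 1.5-fold, 56% changed 2-fold, 77.6% changed 4-fold and 88% changed 8-fold, with 3 false of 119 calls. The real comparison gave 10 calls, so its adjustment was stricter and recovery in it may be lower. Single genes and ratios (0.5 added to each count) were tested by exact two-sided permutation of the 252 group assignments, whose smallest p is 0.00794, and correlations by 100000 permutations. No pair of libraries of the same group agreed within sampling noise (lowest chi-square per degree of freedom 33.1), and pairs across groups were not checked. The 8 genes and the lists were chosen with earlier results of these data known. Named were the 8 genes, Sucnr1, the 3 genes with the smallest p in each list (1 of them is not reported here), the 3 genes most like each of the 8 among those whose log2 CPM averaged 2 or more, and markers of other tissues beside a gene they could touch.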

Additional observations from a re-analysis of the deposited data

Results flagged for a closer look

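In all, 64 sets of values from the 5 libraries of a group were screened for a single library far from the other 4, which chance gives in about 1 of 20 sets, and 2 stood out. Aadac, an esterase abundant in liver, was at 28.7 CPM in knockout library 6, and the other knockout libraries lay between 0.0711 and 0.468 CPM. The gap was 0.986 of the range, where the critical value is 0.71. Alb was at 4310 CPM in the same library. Klf15 was at 56.5 CPM in control library 4, and the other controls lay between 36.4 and 41.1 CPM, a gap of 0.765 of the range.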

How the results depend on the processing

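None of the 8 genes was called under any of the 21 alternatives. The number of genes called over the whole table was 10, and it was 213 with DESeq2, 4 with a replicate block, 6 without control libraries 3 and 6, 4 without knockout library 6 and control library 3, and 3 to 18 when 1 library was left out, the highest without control library 6. The labels do not say whether same-numbered libraries are paired. Their deviations correlated at r of 0.38, -0.11, 0.63, 0.44 and -0.10 for numbers 2 to 6, and 2 of 5 were most like their own number. These values neither show nor exclude a pairing. The causes of the differing numbers of genes called were not tested. Pnpla2, Lipe, Abhd5 and Pnpla3 stayed above 0 and Aqp7 below 0 in every alternative, though Pnpla3 was at 0.0253 and Lipe at 0.0654 with the adipocyte score. The log2 fold change of Mgll, -0.00195, was 0.00396 with upper quartile scaling, 0.00548 with limma-voom, 0.00194 with the replicate block and -0.131 to 0.126 when 1 library was left out. That of G0s2 was -0.197 with the adipocyte score, -0.17 without control libraries 3 and 6 and -0.0307 to 0.316 when 1 library was left out. That of Ces1d was -0.124 with the score, -0.148 without control libraries 3 and 6, -0.0745 without knockout library 6 and control library 3 and -0.00214 to 0.228 when 1 library was left out. That of Aadac was -0.105 without knockout library 6 and control library 3. All 5 ratios kept their direction and side of the threshold in 15 alternatives, with adjusted p for Mgll to Lipe of at least 0.0794. With a replicate block the adjusted p of that ratio was 0.312, and paired signs allow no p under 0.0625. DESeq2 alone called Adora1, Pde4b, Gpd1, Acsl1, Mlxipl, Klf15 and Ppara. Sirt1 was also called by DESeq2 and not by edgeR or limma-voom, and it was not followed through all settings. The median log2 fold change of all genes lay between -0.09 and 0.02 in every setting. The 8 genes had 784 counts or more in every library, and at 5 libraries a group a 1.5-fold change was seldom recovered in simulation.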

Other observations

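Several genes of the pathway lists that the text has not described were highest in control library 6, and Lipg, Aqp9 and Gk are given as examples. Lipg, the gene of endothelial lipase, was at 203 CPM there, and the next highest was knockout library 3 with 57.8 CPM. Aqp9, a glycerol channel of liver and epididymis, was at 113 CPM there, and the next highest was control library 3 with 57.5 CPM. Gk, which encodes glycerol kinase, was at 255 CPM there, and the next highest library was at 105 CPM. Crisp1 of the epididymis was at 8572 CPM in control library 6. These values were noticed after the data were seen and their source was not tested.

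Around Abhd5, 35 tested genes lay within 1 Mb on chromosome 9. Of these, 20 had a positive and 15 a negative log2 fold change, where 44.8% of all genes had a positive one. An unadjusted edgeR p under 0.05 was found for 4, where 10.1% of all genes had one, and none was called by edgeR. Of the 10 genes called in all, 5 lie on this chromosome, the nearest of them, Abhd14b, 15.9 Mb from Abhd5. The share of all tested genes that lie on this chromosome was not counted.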
